A study of Mus musculus with 2 samples.

Results

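The mitochondrial genome of mouse holds 37 genes, and its transcripts were examined here in total RNA from gastrocnemius, the large calf muscle. The members are every gene whose symbol starts with mt-: 2 rRNA genes, 13 mRNA genes and 22 tRNA genes, of 55536 genes in all. Nuclear copies of mitochondrial genes (Gm28437, Gm28661, Gm10925 and Gm29216, 4 genes) were added as a check on shared reads. The tissue came from female mice of the hybrid B6CASTF1/J, the offspring of C57BL/6J mothers and castaneus fathers, aged 36 days, untreated as far as the labels say. There is 1 group of 2 libraries, replicate 2 and replicate 1, each from 300 ng of RNA and with spike-in standards mixed in. The labels number the tissue samples separately and give them a shared strain-level donor, without stating that they are separate animals, and the spread between them may be technical. With 1 group there is no condition to test and no p-value; values are stated for each library, or as a mean with its SD (n = 2).

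The mitochondrial genome is a small circle that is inherited from the mother and kept in many copies in each cell. Both of its strands are transcribed as long precursors, in which tRNA genes lie between most rRNA and mRNA genes, and the excision of the tRNAs releases the RNAs between them. The mRNAs encode core subunits of respiratory complexes I, III and IV and of the ATP synthase, complex V. All other subunits, and every protein factor that copies, transcribes, processes or translates the genome, come from nuclear genes. Pieces of the mitochondrial genome have also been copied into nuclear chromosomes during evolution, and RNA reads cannot be placed between a gene and an identical copy.

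Estimated counts summed to 40656175 in replicate 2 and to 37735687 in replicate 1. Of these, the 37 genes took 17.5% in replicate 2 and 9.39% in replicate 1. Together with the nuclear copies they took 19.8% in replicate 2 and 10.8% in replicate 1. Genes that define skeletal muscle were abundant in both libraries, with 85113 TPM summed over 6 markers in replicate 2 and 116258 TPM in replicate 1, and none of the 6 was at 0. TPM, a scaled number of transcripts, corrects counts for transcript length and is the unit of every level below. Intervals given for shares (Wilson) and for ratios (exact Clopper-Pearson) are at 95% and reflect counting error alone, since these reads carry no molecular identifiers and may include copies of one molecule.

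Both rRNAs stood above every mitochondrial mRNA, although the labels describe the spike-in mixture as one for rRNA-reduced libraries. mt-Rnr2, the 16S rRNA of the large ribosomal subunit (ENSMUSG00000064339.1, plus strand, chrM:1094-2675 in mm10), stood at 78888 TPM in replicate 2 against 40610 TPM in replicate 1. It was the third gene of all by TPM in both libraries. mt-Rnr1, the 12S rRNA of the small subunit (ENSMUSG00000064337.1, plus strand, chrM:70-1024), stood at 47432 TPM in replicate 2 against 25908 TPM in replicate 1. Both rRNAs were thus higher in replicate 2. The pair held 71.4% of the counts of the 37 genes in replicate 2 and 71.0% in replicate 1, a share that moved little while the levels lay far apart. Of the counts of the 37 genes and the nuclear copies together, the pair held 63.1% in replicate 2 and 62.0% in replicate 1. The ratio of 16S to 12S, which occur in equal numbers in assembled ribosomes, was 1.66 by TPM in replicate 2 and 1.57 in replicate 1. Counted from the reads directly, in a second table that the authors deposited, the ratio was 1.83 in replicate 2 and 1.77 in replicate 1. How far the depletion of rRNA acted on each of them was not tested.

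Among the mRNAs, the listed values cannot be read before the nuclear copies are dealt with. A run of copies lies on the minus strand of chromosome 1, in the order of the mitochondrial genes. Gm28661 (chr1:24614885-24615565) matches mt-Co2 in 681 of 681 bases, Gm10925 (chr1:24613974-24614651) matches mt-Atp6 in 678 of 678, and Gm28437 (chr1:24613189-24613971) matches mt-Co3 in 783 of 783. Gm29216 (chr1:24615706-24616197) matches the last 492 bases of mt-Co1 with 486 identical. The ends of mt-Co2, mt-Atp6 and mt-Co3 are shown because their annotated copies stop just short of them. Capitals mark the bases of the mitochondrial gene that lie beyond the end of the annotated copy. They mark where the annotation of the copy ends, and the nuclear sequence beyond it was not compared. The sequences are those of GENCODE M21 transcripts, 5′ to 3′. They lie at chrM:7637-7696, chrM:8548-8607 and chrM:9331-9390 on the plus strand, with the copies at chr1:24614885-24614941, chr1:24613974-24614030 and chr1:24613189-24613247 on the minus strand.

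mt-Co2 end: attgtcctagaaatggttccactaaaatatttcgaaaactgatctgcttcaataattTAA
Gm28661 end: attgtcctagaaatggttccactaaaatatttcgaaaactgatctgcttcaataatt
mt-Atp6 end: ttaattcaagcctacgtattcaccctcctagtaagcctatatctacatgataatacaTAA
Gm10925 end: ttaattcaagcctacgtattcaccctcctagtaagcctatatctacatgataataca
mt-Co3 end: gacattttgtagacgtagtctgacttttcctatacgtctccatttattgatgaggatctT
Gm28437 end: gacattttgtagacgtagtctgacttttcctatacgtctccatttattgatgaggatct

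The annotated copies differ from their genes here only in stopping before the stop codon. In mt-Co3 that codon is cut short to a single T and is completed by the poly(A) tail, as is known for several mitochondrial mRNAs. Gm29216 differs from mt-Co1 only near its start, shown next from chrM:6381-6440 on the plus strand and chr1:24616138-24616197 on the minus strand, with capitals for the bases that differ.

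mt-Co1 at copy start: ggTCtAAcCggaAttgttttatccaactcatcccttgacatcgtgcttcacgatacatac
Gm29216 start: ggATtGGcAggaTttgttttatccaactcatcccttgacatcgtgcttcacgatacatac

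The substitutions, counted from base 1 of mt-Co1 with its base first, were T1056A, C1057T, A1059G, A1060G, C1062A and A1066T. Beyond them the pair was identical for 479 bases.

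How many stretches of 100 bases a gene does not share with its copy bears on how many reads could be placed between them without estimation. In mt-Co2 it was 3 of 585, in mt-Atp6 3 of 582 and in mt-Co3 1 of 685, while in mt-Co1 it was 1066 of 1446. Of the mt-Co1 stretches, 1000 occur in no other annotated transcript, since Gm13340 shares some as well. The counts listed to the gene, out of gene and copy together, did not follow one pattern. For mt-Co2, a subunit of cytochrome oxidase, 0.745% of the pair's counts were listed to the gene in replicate 2 and 0.850% in replicate 1. For mt-Co3, another subunit of that oxidase, it was 11.1% in replicate 2 and 12.2% in replicate 1. For mt-Atp6, which forms part of the proton channel of the ATP synthase, it was 24.5% in replicate 2 and 18.9% in replicate 1. The split differed widely between these 3 genes, which share all but 1 to 3 stretches with their copies. It lay close in both libraries for mt-Co2 and mt-Co3, and less so for mt-Atp6. mt-Co1, the catalytic subunit of cytochrome oxidase, kept 88.7% of the pair's counts in replicate 2 and 88.5% in replicate 1.

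The table quantified from reads divided the same pairs differently. mt-Atp6 there held 99.8% of its pair in replicate 2 and 97.5% in replicate 1. mt-Co3 held 21.2% in replicate 2 and 24.1% in replicate 1, and mt-Co2 5.01% in replicate 2 and 5.03% in replicate 1. The level of mt-Atp6 against its copy thus depended on the method, while mt-Co2 stayed mostly with the copy in both tables. A further 3 copies in the same run, Gm28439 of mt-Nd4, Gm10222 of mt-Nd4l and Gm28438 of mt-Nd3, show the opposite split. mt-Nd4l shares all but 3 of its 198 stretches with Gm10222, shown here by their ends at chrM:10114-10173 on the plus strand and chr1:24612407-24612463 on the minus strand, with capitals as for mt-Co2.

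mt-Nd4l end: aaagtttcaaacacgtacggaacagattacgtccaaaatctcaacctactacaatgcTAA
Gm10222 end: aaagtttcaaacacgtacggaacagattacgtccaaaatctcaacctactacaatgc

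As annotated, Gm10222 stops before the TAA of mt-Nd4l, as Gm28661 stops before that of mt-Co2. Here the TAA also stands in the nuclear run, so the capitals mark an end of annotation only. It lies in the 7 bases that mt-Nd4l shares with mt-Nd4, and Gm28439 matches mt-Nd4 from base 1 in 876 of 876. In the table from alignments 99.8% of the counts of mt-Nd4l and Gm10222 were nonetheless listed to the mitochondrial gene in replicate 2 and 99.997% in replicate 1. In that table mt-Nd3 and mt-Nd4 had 100% of their pairs' counts in both libraries, although mt-Nd3 shares all but 6 of 249 stretches with Gm28438 and mt-Nd4 has 777 of 1279 in common with Gm28439. In the reads-based table mt-Nd4 held 98.9% of its pair in replicate 2 and 94.6% in replicate 1. Among the other copies in the annotation, Gm13340 shares 80 stretches with mt-Co1, Gm13341 88 with mt-Co2 and Gm13339 30 with mt-Nd2.

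**Figure D1:**
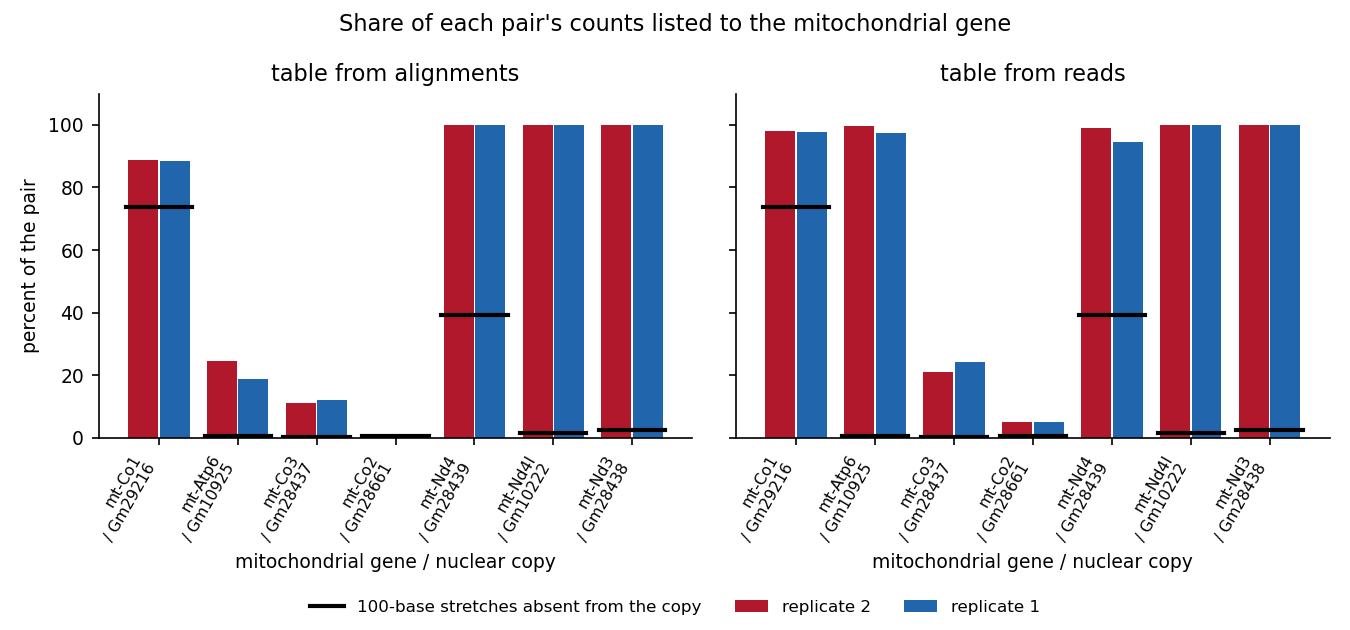
Share of the counts of each gene and nuclear copy that was listed to the mitochondrial gene, in percent, in replicate 2 (red) and replicate 1 (blue); the left panel is the table from alignments and the right panel the table from reads. Black lines give the percent of 100-base stretches of the gene that are absent from the copy; mt-Co2, mt-Co3 and mt-Atp6 (left panel) lie near the bottom, whereas mt-Nd4l and mt-Nd3, with lines as low, lie at the top.

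The authors' posterior SD of a count, which scores the doubt in placing its reads, was largest for the same genes among the mRNAs. For mt-Co2 it was 144% of the listed count in replicate 2 and 167% in replicate 1. For mt-Co3 it was 20.96% in replicate 2 and 19.6% in replicate 1, and for mt-Atp6 5.27% in replicate 2 and 7.91% in replicate 1. It was 0 for mt-Rnr2, mt-Nd1, mt-Atp8, mt-Nd6 and mt-Cytb, and 2.67% in replicate 2 and 3.37% in replicate 1 for mt-Nd4l. The posterior mean count of mt-Co2 was 6.30 times its listed count in replicate 2 and 6.95 times in replicate 1, and that of mt-Co3 3.42 times in replicate 2 and 2.81 times in replicate 1. In all, the 4 copies held 11.5% of the counts of rRNA genes, mRNA genes and copies in replicate 2 and 12.7% in replicate 1. In the reads-based table they held 5.62% in replicate 2 and 6.44% in replicate 1. Levels of mt-Co1, mt-Co2, mt-Co3 and mt-Atp6 are therefore given below with the counts of the copy added to those of the gene, beside the deposited values. Such a sum also holds any transcript of the copy itself.

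With the copies added, the mRNAs of cytochrome oxidase stood among the highest. mt-Co1 (ENSMUSG00000064351.1, chrM:5328-6872) reached 17431 TPM in replicate 2 against 9026 TPM in replicate 1, with deposited levels of 15453 TPM in replicate 2 against 7992 TPM in replicate 1. mt-Co2 reached 15991 TPM in replicate 2 against 9384 TPM in replicate 1, with deposited levels of 119 TPM in replicate 2 against 79.8 TPM in replicate 1. mt-Co3 reached 14327 TPM in replicate 2 against 8608 TPM in replicate 1, with deposited levels of 1593 TPM in replicate 2 against 1054 TPM in replicate 1. The 3 subunits, which assemble into one enzyme in equal number, were close to each other: mt-Co2 over mt-Co1 was 0.917 in replicate 2 and 1.04 in replicate 1. By the deposited levels the same ratio was 0.00771 in replicate 2 and 0.00998 in replicate 1, so the ranking of mt-Co2 rests on which row its reads were listed to.

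The ATP synthase genes mt-Atp8 and mt-Atp6 are read from one RNA with overlapping frames. The end of mt-Atp8 (chrM:7880-7969, plus strand) is shown with the 43 bases that also begin mt-Atp6 in capitals.

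mt-Atp8 end: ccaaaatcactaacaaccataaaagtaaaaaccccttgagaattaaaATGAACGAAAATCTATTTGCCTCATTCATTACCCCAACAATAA

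mt-Atp6 reached 18100 TPM in replicate 2 against 10210 TPM in replicate 1 with Gm10925 added, and was listed without it at 4433 TPM in replicate 2 against 1934 TPM in replicate 1. mt-Atp8, which supports the membrane part of the enzyme, stood at 5966 TPM in replicate 2 against 2537 TPM in replicate 1. As deposited, mt-Atp8 was 1.35 times mt-Atp6 in replicate 2 and 1.31 times in replicate 1. With the copy added it was 0.330 times mt-Atp6 in replicate 2 and 0.248 times in replicate 1. The order of these frames on one RNA therefore turned over with the treatment of the copy. mt-Atp8 is 204 bases long, and no 100-base stretch of it occurs in another annotated transcript. The reads-based table listed it at 0 in both libraries, with an effective length of 45.1 bases in replicate 2 and 42.8 bases in replicate 1, against 105 bases in the table from alignments.

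mt-Cytb, the only mitochondrial subunit of complex III, stood at 8998 TPM in replicate 2 against 4959.9 TPM in replicate 1. It followed the cytochrome oxidase genes and mt-Atp6 in both libraries. No 100-base stretch of it was shared with a copy.

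The 7 genes of complex I, the NADH dehydrogenase, were lower, with a median of 4233 TPM in replicate 2 against 2279 TPM in replicate 1. mt-Nd1, a subunit at the junction of the membrane arm and the peripheral arm, was their highest, at 7106 TPM in replicate 2 against 4135 TPM in replicate 1. mt-Nd4, one of the proton-pumping subunits, followed at 6154 TPM in replicate 2 against 3120 TPM in replicate 1. mt-Nd4l, read with mt-Nd4 from one RNA with 7 bases of overlap, was nearly equal to it, at 5900 TPM in replicate 2 against 3116 TPM in replicate 1. The level of mt-Nd4l over mt-Nd4 was 0.959 in replicate 2 and 0.999 in replicate 1 in the table from alignments. In the reads-based table it was 0.00672 in replicate 2 and 0.0119 in replicate 1, with 104 counts of mt-Nd4l in replicate 2 and 84 in replicate 1, so the near equality depended on the quantification. mt-Nd2, which also pumps protons, stood at 4233 TPM in replicate 2 against 2279 TPM in replicate 1, and mt-Nd5, another pump, at 3854 TPM in replicate 2 against 2128 TPM in replicate 1. mt-Nd3, a small subunit of the membrane arm, stood at 3684 TPM in replicate 2 against 2124 TPM in replicate 1.

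**Figure D2:**
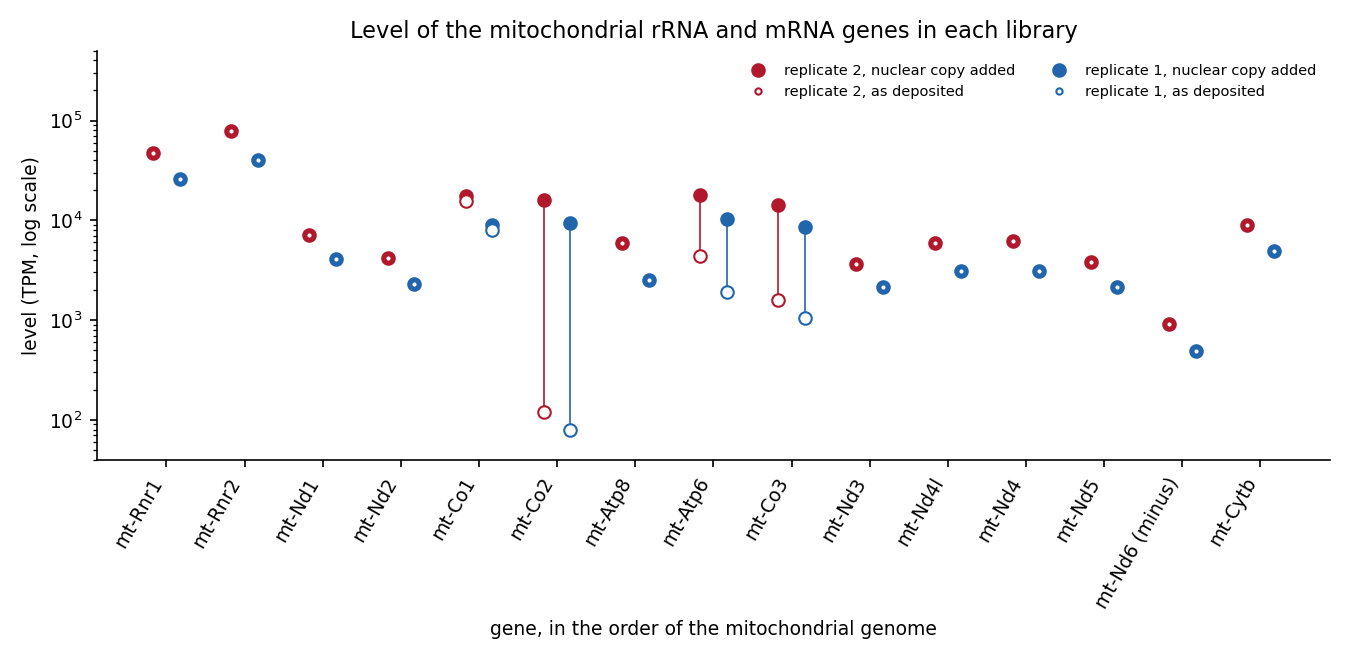
Levels (TPM, log scale) of the 2 rRNA and 13 mRNA genes in genome order, in replicate 2 (red) and replicate 1 (blue); open points are deposited levels and filled points levels with the nuclear copy added, joined by a line where they differ. The rRNAs lie highest, mt-Nd6 on the minus strand lies below every other gene once the copies are added, and mt-Co2, mt-Atp6 and mt-Co3 show the long lines.

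By mean level with the copies added, the order was mt-Atp6 (14155 ± 5579 TPM), mt-Co1 (13228 ± 5943), mt-Co2 (12688 ± 4672), mt-Co3 (11467 ± 4044), mt-Cytb (6979 ± 2856), mt-Nd1 (5620 ± 2101), mt-Nd4 (4637 ± 2145), mt-Nd4l (4508 ± 1969), mt-Atp8 (4251 ± 2425), mt-Nd2 (3256 ± 1382), mt-Nd5 (2991 ± 1221), mt-Nd3 (2904 ± 1103) and mt-Nd6 (697 ± 296; SD, n = 2). Each SD holds the general difference between the libraries, and only 2 of the 12 gaps between neighbours, mt-Co3 over mt-Cytb and mt-Nd3 over mt-Nd6, exceeded the larger SD of the pair. Within each library the order was steadier. Of the 12 neighbouring pairs, 10 stood the same way round in both libraries; the exceptions were mt-Co1 with mt-Co2 and mt-Nd4l with mt-Atp8. The rank correlation of levels between the libraries, across 13 genes that are not independent replicates, was 0.989. Between the 2 quantifications of the same library it was 0.841 in replicate 2 and 0.830 in replicate 1 with the copies added. As deposited it was 0.577 in replicate 2 and 0.484 in replicate 1.

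By counts, which rise with length, mt-Co1 and its copy took 27.4% of the counts of the 13 mRNA genes and 4 copies in replicate 2 (27.35% to 27.45%) and 25.8% in replicate 1 (25.76% to 25.90%). mt-Nd6 took 0.414% in replicate 2 (0.407% to 0.421%) and 0.405% in replicate 1 (0.395% to 0.415%). The highest and lowest of the 13 mRNAs were 19.97-fold apart in replicate 2 and 20.95-fold apart in replicate 1 with the copies added. As deposited, mt-Co2 was the lowest and the range was 130-fold in replicate 2 and 100.2-fold in replicate 1. Over the 12 mRNAs of the plus strand alone, the range with the copies added was 4.91-fold in replicate 2 and 4.81-fold in replicate 1. The rRNAs together were 1.12 times the 13 mRNAs together by TPM in replicate 2 and 1.07 times in replicate 1 with the copies added, and 1.85 times in each library as deposited.

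The strands of the genome differed in what they carried and in level. The plus strand of the reference lists both rRNAs, 12 mRNAs and 14 tRNAs, which are copied from the heavy strand. The minus strand lists mt-Nd6 and 8 tRNAs. mt-Nd6 (ENSMUSG00000064368.1, chrM:13552-14070), a complex I subunit and the only mRNA made from the light strand, stood at 906 TPM in replicate 2 against 487 TPM in replicate 1. With the copies added, the lowest mRNA of the plus strand was mt-Nd3, at 4.06 times mt-Nd6 in replicate 2 and 4.36 times in replicate 1. That order depended on the values used. As deposited, mt-Co2 was lower than mt-Nd6 in both libraries. In the reads-based table mt-Nd6 stood at 1492 TPM in replicate 2 against 1024 TPM in replicate 1, above mt-Nd4l at 57.7 TPM in replicate 2 against 54.2 TPM in replicate 1, and above mt-Atp8, listed at 0. The median of the 12 plus-strand mRNAs was 7.31 times mt-Nd6 in replicate 2 and 7.44 times in replicate 1 with the copies added. As deposited it was 5.70 times in replicate 2 and 4.94 times in replicate 1. mt-Nd5, its neighbour on the other strand, was 4.25 times as high in replicate 2 and 4.37 times in replicate 1. The genes overlap by their last bases, shown at the end of mt-Nd6 (chrM:13552-13611, minus strand) in capitals.

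mt-Nd6 end: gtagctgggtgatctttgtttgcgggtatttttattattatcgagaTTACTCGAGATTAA

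Whether the counting used the strand of the reads is not given in the sources used here. RNA antisense to mt-Nd6, from the precursor of the other strand, therefore cannot be told apart from mt-Nd6 itself in these counts, and its level is an upper value in that sense.

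The 22 tRNA genes had no counts in these tables, and no level can be read for them. They encode the full set of tRNAs that the mitochondrial ribosome uses, and are 59 to 75 bases long. Every one was listed at 0 counts in both libraries, in the table from alignments and in the reads-based table. In the table from alignments their effective length was 0, since that length was the annotated length less 99 bases, and none of the 28583 rows shorter than 100 bases had a count. A 0 in that table is thus set by length and gives no limit on the level. In the reads-based table their effective lengths were above 0, at 21.6 bases for mt-Ts2 and 25.0 bases for mt-Tl1 in replicate 2. Why that table listed the tRNA genes at 0 was not tested. The longest and the shortest are shown to give the scale, mt-Tl1 for leucine at chrM:2676-2750 and mt-Ts2 for serine at chrM:11613-11671, both on the plus strand.

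mt-Tl1: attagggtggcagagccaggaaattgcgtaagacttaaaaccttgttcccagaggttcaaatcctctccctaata
mt-Ts2: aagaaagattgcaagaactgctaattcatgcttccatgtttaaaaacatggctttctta

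mt-Tl1 begins at the base after the end of mt-Rnr2 and ends at the base before mt-Nd1. The minus-strand tRNA genes are mt-Ta, mt-Tc, mt-Te, mt-Tn, mt-Tp, mt-Tq, mt-Ts1 and mt-Ty, for alanine, cysteine, glutamate, asparagine, proline, glutamine, serine and tyrosine.

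The libraries differed in mitochondrial RNA as a whole. All 13 mRNAs and both rRNAs were higher in replicate 2, where 49% of 9996 genes averaging 100 or more counts were higher (log2 ratios of counts scaled by TMM, which sets the bulk of genes near 0). The median log2 ratio of the 13 mRNAs, replicate 2 over replicate 1, was 0.91, from 0.60 for mt-Co2 to 1.25 for mt-Atp8. With the copies added it was 0.88, from 0.75 for mt-Co3 to 1.25 for mt-Atp8, so the range narrowed when the reads of each pair were joined. In the reads-based table all 12 mRNAs listed above 0 were higher in replicate 2. The lowest log2 ratios there were 0.19 for mt-Nd3 and 0.25 for mt-Nd4l, well below their values from alignments (0.81 and 0.94). mt-Rnr1 had a log2 ratio of 0.89 and mt-Rnr2 one of 0.97, and the 4 copies lay between 0.74 and 0.95. Of the copies, 3 of 4 were also higher in replicate 2 in the reads-based table, but Gm10925 was lower there, with 463 counts in replicate 2 and 2745 in replicate 1 and a log2 ratio of -2.62. The median over the 9996 genes was -0.01.

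The summed counts of the rRNAs were 1.93 times as high in replicate 2 (1.93 to 1.94) and those of the mRNAs with the copies 1.84 times (1.84 to 1.85). Few genes differed as much: 2.20% of the 9996 genes had a higher ratio than mt-Rnr2, and 2.73% a higher one than mt-Cytb. Over 2-fold higher in replicate 2 were 2 of the 13 mRNAs as deposited, mt-Atp8 and mt-Atp6, against 2.11% of all genes; with the copies added only mt-Atp8 remained. mt-Atp8 was 2.38 times as high (2.32 to 2.44), with 20201 counts in replicate 2 and 8134 in replicate 1. mt-Nd6, from the other strand, was 1.88 times as high (1.82 to 1.94), close to the plus-strand median. The common biological coefficient of variation between the libraries was 0.221, over the 14263 genes used for TMM. Separate animals are not stated, so this spread may be technical despite its name.

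Scaled to the spike-in RNAs, the differences were larger. The rRNAs were 2.53 times as high in replicate 2 (2.52 to 2.53) and the mRNAs with the copies 2.40 times (2.400 to 2.410). That scaling moved the median of all genes to a log2 ratio of 0.38, with 92.3% of the 9996 genes higher in replicate 2. It moves every gene by the same step, so the distance of the mRNAs from that median is fixed by construction. The 37 genes had 36.5 counts per spike-in count in replicate 2 and 14.5 in replicate 1.

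**Figure D3:**
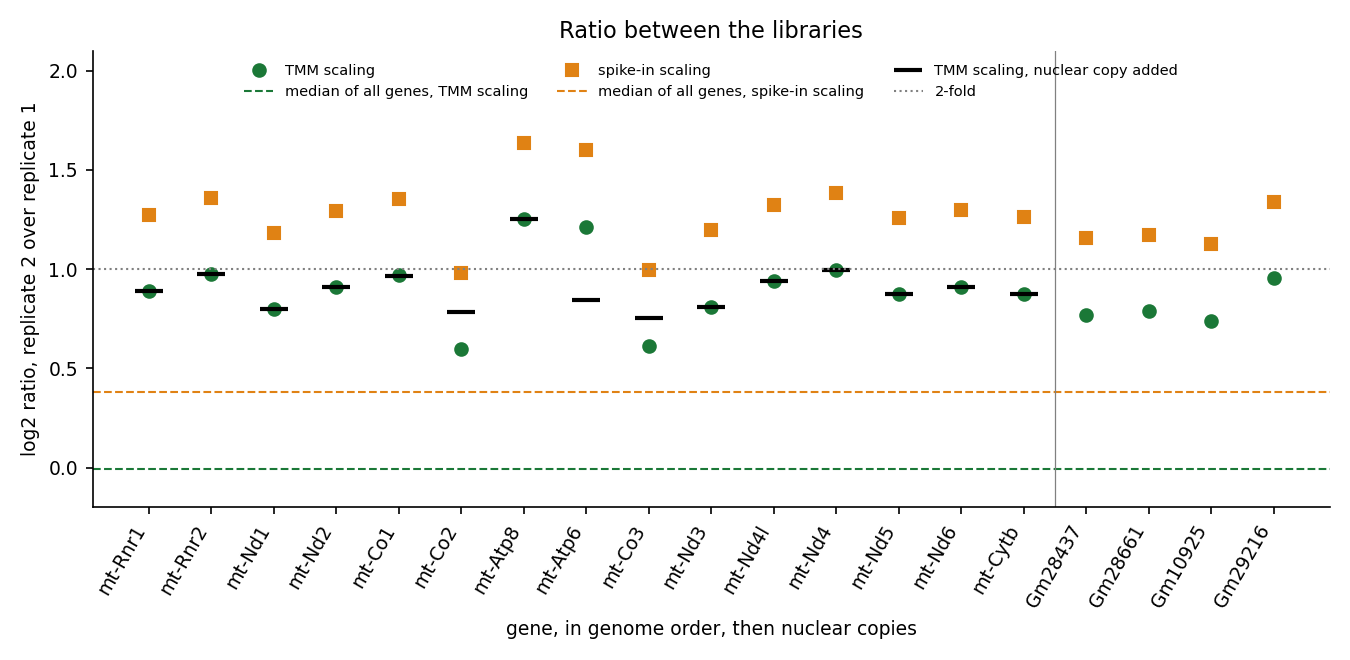
Log2 ratio of replicate 2 over replicate 1 for the rRNA and mRNA genes in genome order and the 4 nuclear copies, under TMM scaling (green circles) and spike-in scaling (orange squares); black bars add the copy, dashed lines are the medians of 9996 genes and the dotted line is 2-fold. All points lie above the dashed line of their own scaling; mt-Co2, mt-Atp6 and mt-Co3 move toward the other genes when the copy is added.

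Other differences between the libraries went with this one. All 9 slow-fibre markers were over 2-fold higher in replicate 2, against 2.11% of all genes, summing to 2885 TPM in replicate 2 against 16.6 TPM in replicate 1, with none at 0 in either. Slow fibres are known to be rich in mitochondria. All 6 fat cell markers were over 2-fold lower in replicate 2, against 1.21% of all genes, at 25.1 TPM in sum in replicate 2 and 239 TPM in replicate 1, with none at 0. So were 5 of 5 red blood cell markers (425 TPM in sum in replicate 2, 2445 TPM in replicate 1) and 4 of 4 nerve markers (35.5 TPM in replicate 2, 116 TPM in replicate 1), again with none at 0. The 6 heart markers summed to 555 TPM in replicate 2 against 1254 TPM in replicate 1; their directions differed. Actc1, cardiac actin, carried most of the sum, at 457 TPM in replicate 2 against 1251 TPM in replicate 1, while Myh6, the alpha cardiac myosin, stood at 96.6 TPM in replicate 2 against 0.170 TPM in replicate 1. Tnnt2 had 39 counts in replicate 2 and 75 in replicate 1, Myl7 was at 0 in both, and Nppa and Tnni3 were at 0 in replicate 1. The 5 lymphocyte markers summed to 6.62 TPM in replicate 2 against 0.830 TPM in replicate 1, where Rag1 was at 0. The part of any of these in the mitochondrial difference was not tested. In whole tissue, more cells or fibres rich in mitochondria and more mitochondrial RNA per cell cannot be told apart.

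In the table from alignments, nuclear genes for subunits of the same complexes had far lower medians than the mitochondrial ones. Their log2 ratios between the libraries were also lower in median. The reads-based levels of mt-Nd4l (57.7 TPM in replicate 2, 54.2 TPM in replicate 1) and mt-Atp8 (0 in both) were not compared here. In complex I, the mitochondrial genes' median with the copies added was 24.6 times that of 36 nuclear subunit genes in replicate 2 and 16.7 times in replicate 1. In complex III, mt-Cytb was 26.2 times the median of 9 nuclear genes in replicate 2 and 17.6 times in replicate 1. In complex IV the factor was 30.2 in replicate 2 and 24.2 in replicate 1, over 10 nuclear genes. In complex V it was 36.0 in replicate 2 and 25.1 in replicate 1, over 15 nuclear genes. There the mitochondrial median is the midpoint of mt-Atp6 and mt-Atp8 alone, which lay far apart. The highest nuclear gene of the 4 complexes, Atp5b, the catalytic beta subunit of the ATP synthase, stood at 1539 TPM in replicate 2 against 1160 TPM in replicate 1. In replicate 2 it was the only nuclear subunit gene above mt-Nd6; in replicate 1 Atp5a1, the alpha subunit, and Cox8b, a muscle form of a cytochrome oxidase subunit, were above it too. None of the 3 reached another mitochondrial mRNA in its library with the copies added. The highest of complex I was Ndufc1 at 403 TPM in replicate 2 against 381 TPM in replicate 1, that of complex III Uqcrq at 534 TPM in replicate 2 against 350 TPM in replicate 1, and that of complex IV Cox8b at 754 TPM in replicate 2 against 635 TPM in replicate 1.

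Of the 70 nuclear subunit genes with a row, 69 averaged 100 or more counts, and all 69 were higher in replicate 2, against 49% of all genes. Their median log2 ratio was 0.41, less than the 0.88 of the mitochondrial mRNAs with the copies added, and none of them was over 2-fold apart, against 3.32% of all genes. By complex the medians were 0.36 for complex I, 0.44 for complex III, 0.51 for complex IV and 0.44 for complex V. Cox7a1, a muscle form of a cytochrome oxidase subunit, had the highest ratio, with a log2 ratio of 0.86, at 383 TPM in replicate 2 against 215 TPM in replicate 1. Cyc1, the cytochrome c1 of complex III, had a log2 ratio of 0.71.

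**Figure D4:**
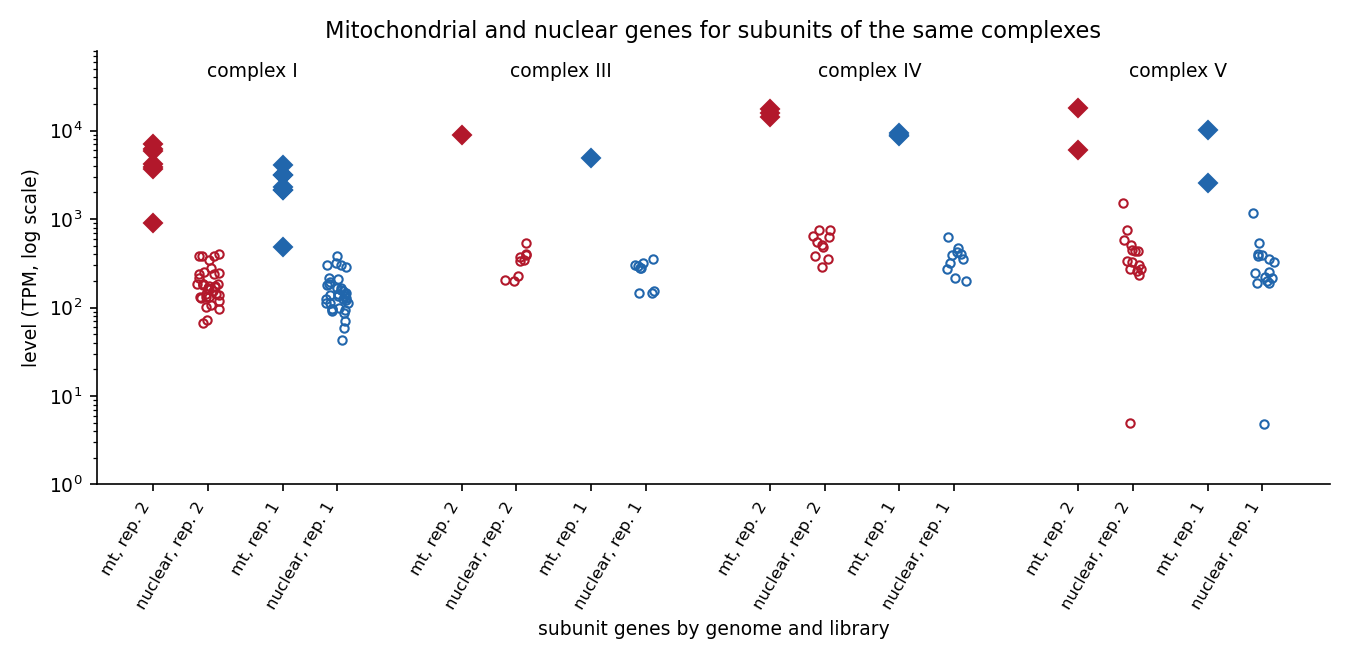
Levels (TPM, log scale) of the mitochondrial genes with copies added (filled diamonds) and the nuclear genes (open circles) for subunits of complexes I, III, IV and V, in replicate 2 (red) and replicate 1 (blue). The lowest mitochondrial gene is mt-Nd6 (906 TPM in replicate 2, 487 TPM in replicate 1); Atp5b lies above it in replicate 2, and Atp5b, Atp5a1 and Cox8b do in replicate 1.

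The nuclear genes that copy, transcribe, process and translate the mitochondrial genome lay closer together in the libraries. Of 90 regulators with a row in 4 lists, 82 averaged 100 or more counts; 60 of them were higher in replicate 2, against 49% of all genes, and their median log2 ratio was 0.13. Over 2-fold apart in either direction were 0, against 3.32% of all genes. With spike-in scaling all 82 were higher in replicate 2, against 92.3% of all genes, with a median of 0.52. Tfam, which packages the genome and starts its transcription, stood at 22.1 TPM in replicate 2 against 21.8 TPM in replicate 1, with a log2 ratio of 0.08. Tfb2m, the transcription factor that melts the promoter, stood at 14.7 TPM in replicate 2 against 15.4 TPM in replicate 1. Its log2 ratio by scaled counts was 0.05, the other way from its TPM. Polg, the DNA polymerase of mitochondria, stood at 13.4 TPM in replicate 2 against 16.4 TPM in replicate 1, with a log2 ratio of -0.14. These levels were close together in both libraries.

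By group, the 15 measured genes of transcription and genome maintenance had a median log2 ratio of 0.08, with 11 higher in replicate 2. Mterf2, a member of the mitochondrial termination factor family, had the highest ratio of that group, with 187 counts in replicate 2 and 92 in replicate 1 and a log2 ratio of 0.96. The 28 genes of RNA processing and stability had a median of 0.26, with 20 higher. Among them Fastk, of a family of mitochondrial RNA-binding proteins, led in level at 70.0 TPM in replicate 2 against 60.8 TPM in replicate 1. Slirp, which protects mitochondrial mRNAs, followed at 57.2 TPM in replicate 2 against 52.3 TPM in replicate 1. Mettl15 (0.92), a methyltransferase of the 12S rRNA, and Mrm1 (0.92), one of the 16S rRNA, had the highest log2 ratios of that group. Mettl15 had 149 counts in replicate 2 and 75 in replicate 1, and Mrm1 216 counts in replicate 2 and 109 in replicate 1. The 26 genes of tRNA modification and charging had a median log2 ratio of 0.16, with 20 higher, and Lars2, the leucyl-tRNA synthetase of mitochondria, led them at 23.1 TPM in replicate 2 against 16.4 TPM in replicate 1. The 13 translation genes had a median of 0.08, with 9 higher. Tufm, the elongation factor, stood at 47.7 TPM in replicate 2 against 48.5 TPM in replicate 1. By scaled counts it was higher in replicate 2, with a log2 ratio of 0.22.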

How the data were processed

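Total RNA of gastrocnemius was sequenced in 2 libraries of 1 group, which came from the labels. The authors deposited a gene table for each library, made from transcriptome alignments, and a further table per transcript made from the reads directly, on mm10 with GENCODE M21. The counting program, its version and its use of strand were not given in the sources used here. Expected counts in the deposited gene tables and estimated counts in the deposited transcript tables are not normalised. TPM values are as deposited and include the spike-in rows. The posterior SD of the count is used as a score, per the file headers. The bounds of each gene's TPM were deposited too and are treated as a signal that was not needed for any result.

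Members and gene lists were chosen with earlier results of these data known. Of the regulators, 1 gene, Twf2, an actin-binding protein, was listed in error and left out. Where 2 rows share a symbol, the row with more counts was used. The nuclear genes named from the lists were taken from the highest members by mean TPM and those with the largest absolute log2 ratio. Not every such gene is named, and Lonp1 and Grsf1 are among those left out. Mterf1b and Trmt61b are named only for an alternative count threshold.

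Sequences are GENCODE M21 transcripts. Copies were aligned to the genes and compared in stretches of 100 bases. A joined level is the counts of gene and copy over the effective length of the gene, on the TPM scale of that library. Log2 ratios are replicate 2 over replicate 1, from counts scaled by TMM (edgeR 4.0.16, R 4.3.3) over 14263 genes, with a prior count of 0.5; other scalings used spike-ins, DESeq2 1.42.0 size factors or totals. The calculation of ratios and intervals was checked on simulated counts. These held counting error alone and no reads split between genes, so the check does not cover either source of error in the real libraries. No test of a condition was possible. The effect of castaneus alleles on alignment was not tested.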

Additional observations from a re-analysis of the deposited data

How the results depend on the processing

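The median log2 ratios of the mRNAs and of the rRNAs kept their direction under each alternative run. Single genes did not all do so: 22 of 82 regulators not higher in replicate 2 under TMM were higher with spike-in scaling, and Gm10925 turned to -2.62 in the reads-based table. The median log2 ratio of the mRNAs (0.91) was 1.29 with spike-in scaling, 1.02 with library totals without mitochondrial genes, 0.89 from TPM, 0.80 in the reads-based table over the 12 genes it lists, 0.88 with the copies added and 0.90 without a filter; that of the rRNAs (0.93) was 1.32, 1.04, 0.92 and 0.94 under the first 4 of these. Leaving out a library gave 9.39% to 17.5% for the mitochondrial share. The ratio of rRNA to mRNA (1.85) was 2.01 by counts per annotated length, 1.80 in the reads-based table, 1.10 with the copies added and 1.73 from posterior means. The 16S to 12S ratio (1.62) was 1.69 by annotated length and 1.80 in the reads-based table. Plus-strand mRNA over mt-Nd6 (5.32) was 7.38 with the copies added and 3.62 in the reads-based table. The spread of the mRNAs (115-fold) was 20.5-fold with the copies added and 18.5-fold from posterior means; the reads-based table gave none, since it lists mt-Atp8 at 0. The share of the copies (12.1%) was 6.03% in the reads-based table, 32.4% among mRNAs and copies, and 10.8% from posterior means. The count of regulators over 2-fold apart (0) was 3 with spike-in scaling (Mterf2, Mrm1 and Mettl15), 2 at a mean count of at least 10 (Mterf1b and Trmt61b) and 1 in the reads-based table (Mterf2). Joined levels and posterior means were chosen after seeing the data. The cause of these shifts was not tested, apart from what each alternative changes by construction. Counting error is small beside the gap between the libraries for mRNAs and rRNAs. In the table from alignments, the length of the tRNA genes sets their 0. No paired analysis was possible because there is only 1 group.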
